A study of Drosophila melanogaster with 12 samples.

Results

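The comparison is between the prepupal wing at 6 h and the pupal wing at 36 h after puparium formation (APF), when the wing epidermis of *Drosophila melanogaster* prepares the pupal and then the adult cuticle. Its members are the 2 libraries titled 6hAPF and the 2 titled 36hAPF, 4 of the 12 RNAseq libraries of a series that runs from wandering L3 larvae to 44 h APF with 2 replicates at each of 6 timepoints. Every library came from pooled dissected wings of the strain w1118/y,w, hs-FLP; + ; +, with no treatment named, so that both groups share a transgene for FLP recombinase under a heat-shock promoter and are set apart by age. The question was which genes were high and similar at both timepoints, here called shared, and which were high at only one of them. A whole wing holds vein, intervein and sensory cells, nerves, trachea and blood cells, and in such bulk samples more cells of a type and more RNA per cell cannot be told apart.

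Insect cuticle is laid down from the outside in by the apical face of the epidermis, with an envelope first, then a protein-rich epicuticle, and then a procuticle of chitin fibres and chitin-binding proteins. Chitin is made at the plasma membrane by chitin synthase from UDP-N-acetylglucosamine, and it is ordered by deacetylases and other apical proteins. Zona pellucida (ZP) domain proteins hold the apical membrane to the matrix above it, and enzymes of dopamine metabolism and laccases tan the finished cuticle. Pulses of the steroid hormone ecdysone time both rounds through nuclear receptors and other transcription factors.

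Levels are given as CPM, a gene's reads scaled to a library of 1000000 reads on genes, after TMM scaling, which evens out library composition. The 4 libraries held between 3352491 and 5139047 reads on genes, so that 3 counts, the upper limit that a count of 0 allows, came to 0.688 CPM in the deepest and 1.02 CPM in the shallowest, for counting error alone. Reads aligned to several places were 47.9 to 69.5% of the records of these libraries and were not counted, so genes with near-identical copies, such as members of the *Lcp65A*, *Ccp84A* and Tweedle clusters, may be undercounted. Of 6 wing genes, *vg*, *nub*, *ap* and *sd* were shared, *rn* was lower at 36 h (81.6 and 67.3 CPM at 6 h, 20.6 and 11.7 CPM at 36 h) and *bs* was higher (41.5 and 31.9 CPM, 235 and 170.4 CPM). The salivary glue genes together were at 0.688 CPM or less at 6 h and at 3.05 CPM or less at 36 h. Muscle markers were higher at 36 h for 6 of 7 genes, with summed levels of 92.8 and 185 CPM at 6 h and 1630 and 1614 CPM at 36 h, most of it *sls*, and 4 of 5 neuronal markers were higher at 36 h as well, with sums of 35.5 and 37.0 CPM at 6 h and 137 and 142 CPM at 36 h. Blood cell markers were low at both, with 2 of 4 lower at 36 h and sums of 34.1 and 36.7 CPM at 6 h and 19.4 and 18.0 CPM at 36 h. Fat body markers summed to 148 and 668 CPM in replicates 1 and 2 at 6 h, and to 130.0 and 122 CPM at 36 h, with 2 of 6 lower at 36 h. Their part in the results was not tested.

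The 6 h replicates stood apart from each other in the cuticle genes themselves. Of the 8469 genes tested, replicate 1 was at least 2-fold above replicate 2 for 655 (7.73%) and at least 2-fold below it for 602 (7.11%), and the replicates had a Spearman correlation across genes of 0.949, against 0.972 at 36 h (genes are not independent replicates). Replicate 1 was the higher by 2-fold or more for 15 of 18 genes of the *Lcp*, *Ccp*, *Edg* and *Acp* cuticle proteins (median log2 ratio 4.65). The same held for 4 of 5 Tweedle genes (1.97), all 4 obstructor genes (1.99), 7 of 14 chitin synthesis and assembly genes (1.17) and 20 of 44 Cpr genes (0.50). Genes were tested with log2 CPM above 2 in at least 1 library. Of the 18 *Lcp*, *Ccp*, *Edg* and *Acp* genes, 7 passed this filter in at least 2 libraries, so their ratio is partly set by the filter. Replicate 2 was the higher by 2-fold or more for 14 of 22 Osiris genes (median log2 ratio −1.33) and 5 of 12 ZP genes (−0.60). At 36 h the same medians lay between −0.33 and 0.26. Of 6 fat body markers at 6 h, 3 were at least 2-fold higher in replicate 2, and 1 was so in replicate 1. *Fbp1* had 63.3 CPM in replicate 1 and 396 CPM in replicate 2, and *Ubx*, a haltere marker, had 10.5 and 40.1 CPM. The part of these markers in the difference was not tested. The sources used here say only that the replicates are independent, so the p-values measure the spread between these samples. That spread was pooled over all 6 timepoints in the fit. Replicates were 2-fold or more apart for 14.8% of the tested genes at 6 h and for 3.00 to 7.96% at the other timepoints. The spread at 6 h may therefore be understated. Some results that rest on either 6 h library are given with and without it.

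**Figure D1:**
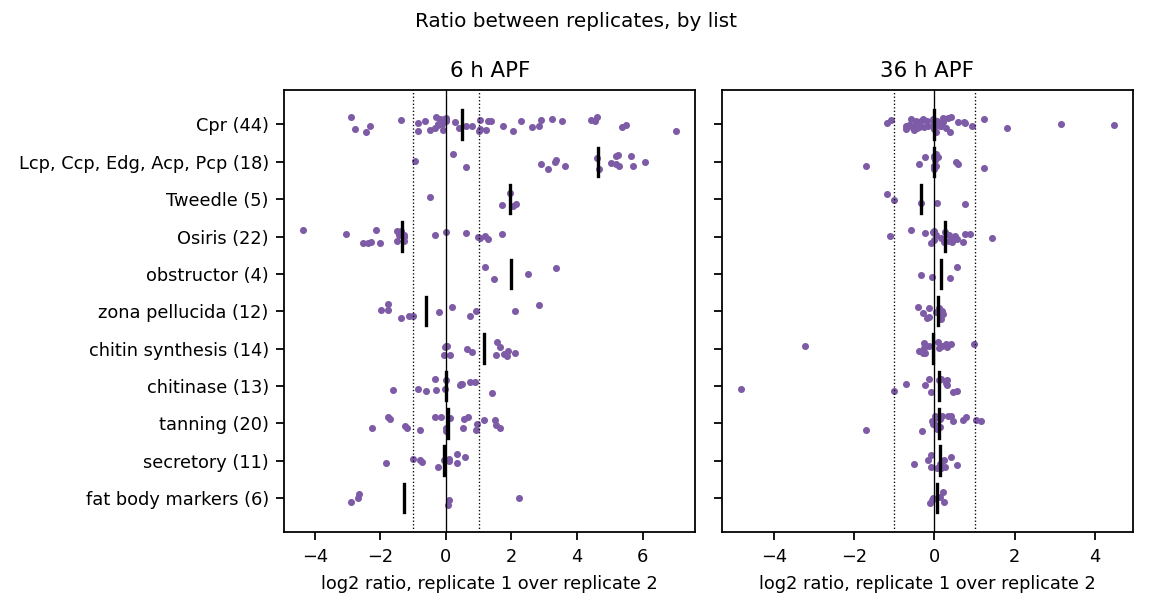
Log2 ratio of replicate 1 over replicate 2 (log2 CPM with a prior count of 2) for each tested gene of the cuticle lists, secretory genes and fat body markers, at 6 h (left) and 36 h APF (right). Points are genes, the number after each name counts them, thick bars are medians and dotted lines mark 2-fold. At 6 h the median of the *Lcp*, *Ccp*, *Edg* and *Acp* genes is 4.65 and that of the Osiris genes −1.33. A gene could be tested through 1 high library, which partly sets the median of 4.65. At 36 h the medians of the cuticle lists lie near 0.

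Over all genes, 1443 of 8469 were higher at 36 h (17.0%) and 1375 were lower (16.2%) in the quasi-likelihood test of edgeR, at a Benjamini-Hochberg adjusted p under 0.05 and a fold change of 2 or more, so that 33.3% of the genes were past the test. With the 4 libraries alone in the fit, 1205 were higher and 1003 lower. The libraries of the timepoints did not overlap for 5807 genes (68.6%). A gene was called shared when it had at least 32 CPM in each of the 4 libraries and a fitted change under 2-fold. There were 2173 shared genes (25.7%), of which 1294 (15.3% of those tested) had a 95% interval of the change inside 2-fold either way. Most shared genes were high at other timepoints too, with at least 32 CPM in both libraries for 89.6% at L3, 88.4% at 18 h and 89.1% at 24 h. A shared gene therefore need not belong to cuticle preparation. A gene was called 6 h only or 36 h only when it was past the test, had at least 32 CPM in both libraries of that timepoint and less than 4 CPM in both of the other, which says nothing of the other 4 timepoints. There were 81 genes of 6 h only (0.956%) and 60 of 36 h only (0.708%). A further 568 genes (6.71%) were above 32 CPM in all 4 libraries but differed by 2-fold or more.

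**Figure D2:**
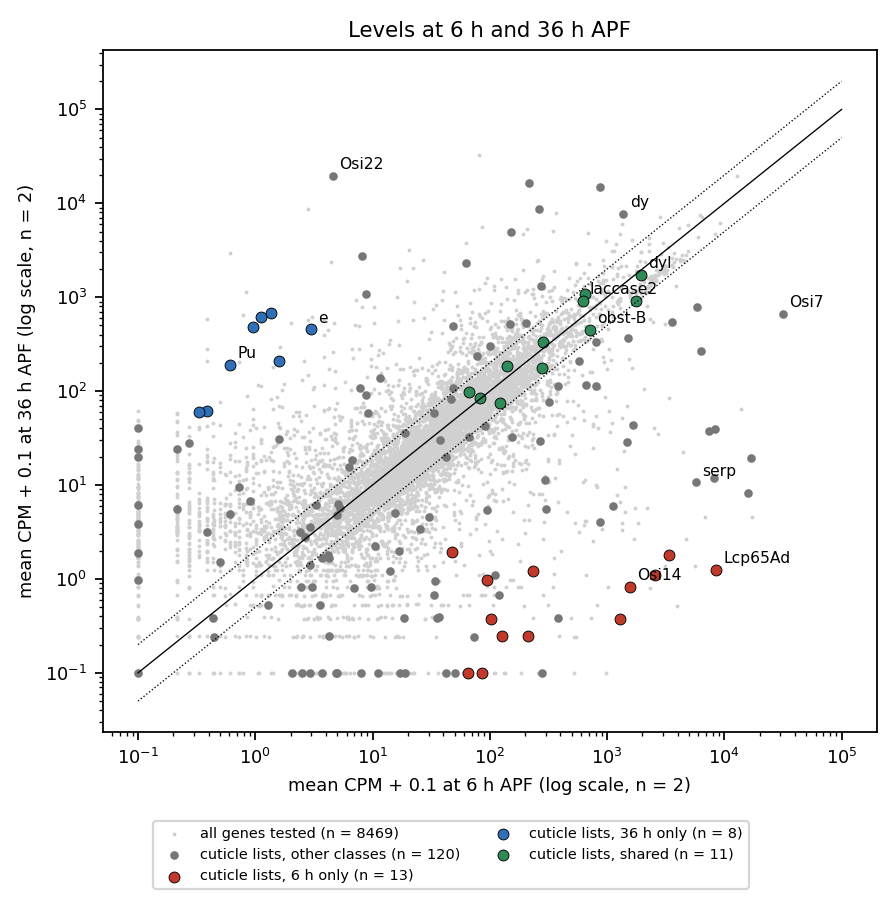
Mean CPM at 6 h against mean CPM at 36 h APF (2 libraries each, 0.1 added, both axes logarithmic) for the 8469 tested genes, with the 152 tested cuticle genes drawn larger. The solid line marks equal levels and the dotted lines 2-fold. The 13 cuticle genes of 6 h only lie along the lower edge, the 8 of 36 h only at the upper left, and the 11 shared genes along the diagonal.

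The cuticle lists together held 223 genes in the files, of which 152 passed the filter on low counts. The 71 that did not pass had at most 2.29 CPM at 6 h and 3.53 CPM at 36 h, and 24 of the 223 had no count in any of the 12 libraries. Cuticle genes took 15.7 and 10.4% of the reads on genes in the 6 h libraries and 8.84 and 8.22% in the 36 h libraries, against 0.554 to 0.626% at L3, 2.45 to 2.77% at 18 h, 1.27 to 1.31% at 24 h and 21.1 to 21.6% at 44 h. Of the 152 tested genes, 42 were higher at 36 h (27.6%) and 71 were lower (46.7%), and the median log2 fold change was −1.28, against −0.09 over all tested genes. Without 6 h replicate 1 the counts were 39 higher and 52 lower of 137, with a median of −0.21, and without 6 h replicate 2 they were 45 and 77 of 152, with a median of −1.40. Only 11 of the 152 were shared (7.24%), 13 were of 6 h only (8.55%) and 8 of 36 h only (5.26%), whereas 26 (17.1%) were high at both timepoints and 2-fold or more apart.

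**Figure D3:**
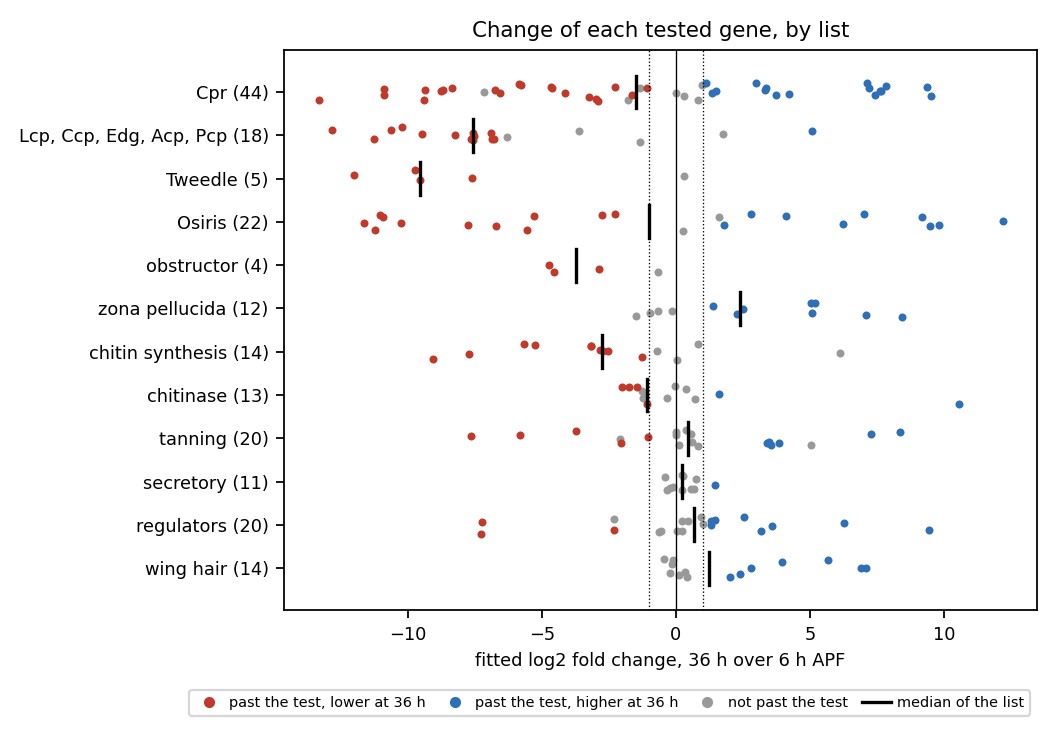
Fitted log2 fold change from 6 h to 36 h APF for each tested gene, by list, with the number of genes after each name. Colours mark genes past edgeR's test in either direction, thick bars are medians and dotted lines mark 2-fold. Tweedle genes and the *Lcp*, *Ccp*, *Edg* and *Acp* genes lie mostly to the left, ZP genes and wing hair genes to the right, and Osiris and Cpr genes on both sides.

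The 11 shared cuticle genes were *dyl*, *dp* and *qsm* among the ZP genes, *rtv* and *nst* among the chitin genes, *Cht2* and *Cht3* among the chitinases, *laccase2* and *yellow-d* among the tanning genes, *obst-B* and *Osi24*. They came from 6 of the 9 cuticle lists, and no Cpr, *Lcp*, *Ccp*, *Edg*, *Acp* or Tweedle gene was among them. Only 3 of the 11 had an interval inside 2-fold. The group depended on the 6 h library: all 11 were still shared without replicate 1, when 5 more genes joined them, but 6 of the 11 remained without replicate 2, with 4 others. Without that library *obst-B*, *qsm* and *dp* were lower at 36 h and past the test (−1.23, −1.03 and −1.27 on the log2 scale), and *Osi24* and *Cht3* were higher and past it (1.18 and 1.21).

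Dusky-like (*dyl*), a ZP protein of the apical matrix, had 1222 and 2668 CPM at 6 h and 1810 and 1662 CPM at 36 h, so that the 6 h libraries lay on either side of the 36 h libraries. Its log2 fold change was −0.16 (95% interval −1.13 to 0.80). Between these timepoints it had 32.1 and 18.8 CPM at 18 h and 10.6 and 30.1 CPM at 24 h, far below either. The log2 fold change was −6.24 from 6 to 18 h and 6.52 from 24 to 36 h, with adjusted p-values of 4.46e-06 and 6.54e-06 from edgeR's quasi-likelihood test. The 6 and 36 h libraries also chose this gene, so these values are a description.

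*laccase2*, the oxidase that crosslinks cuticle proteins in tanning (*stw* in the current annotation), had 650.1 and 590.3 CPM at 6 h and 1056 and 772 CPM at 36 h. Here the 36 h libraries were both the higher, by a log2 fold change of 0.56 (95% interval 0.02 to 1.10, adjusted p = 0.0856 from edgeR's test). It had 108 and 75.3 CPM at 18 h and 95.3 and 101 CPM at 24 h. *Osi24*, of an insect-specific membrane protein family, had 148 and 415 CPM at 6 h and 379.5 and 293 CPM at 36 h, with overlapping libraries and 18.8 to 27.5 CPM in the 4 libraries between. *obst-B*, a chitin-binding protein of the obstructor family, had 1062 and 382 CPM at 6 h and 401 and 504 CPM at 36 h, also overlapping (log2 fold change −0.68, 95% interval −1.48 to 0.13).

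*rtv*, *Cht3*, *qsm*, *dp* and *Cht2* did not both fall from 6 to 18 h and rise from 24 to 36 h past the test. *rtv*, a small membrane-linked protein needed for chitin fibre order, had 84.1 and 81.9 CPM at 6 h and 93.9 and 75.2 CPM at 36 h, with an interval of −0.39 to 0.44 on the log2 scale and 60.4 to 71.4 CPM in the libraries between. It overlaps *Lint-1* on the opposite strand, and the strand setting of the counting is not given in the sources used here. *Cht3*, a chitinase named *Cht10* in the current annotation, had 466 and 838 CPM at 6 h and 1187 and 967 CPM at 36 h, and at 842 to 1393 CPM it was as high between them. *qsm* had 365 and 195 CPM at 6 h and 189 and 167 CPM at 36 h, with 235 to 329 CPM between. *dp*, the giant ZP protein dumpy, was close to the 2-fold limit, with 2216 and 1344 CPM at 6 h and 789 and 1051 CPM at 36 h (log2 fold change −0.95, SE 0.35). It fell from 6 to 18 h, by 2.53 on the log2 scale to 293 and 322 CPM (adjusted p = 0.000197 from edgeR's test), but its rise from 24 h, when it had 807 and 475 CPM, to 36 h was not past the test.

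*yellow-d*, of the Yellow family of secreted proteins, had 58.4 and 73.4 CPM at 6 h and 101 and 96 CPM at 36 h, against 3.08 to 5.10 CPM at 18 and 24 h. *nst*, the phosphoacetylglucosamine mutase on the way to the chitin sugar, had 121 and 122 CPM at 6 h and 82.7 and 67.2 CPM at 36 h, and 20.4 to 31.5 CPM between. *Cht2*, with *CG13921* on the opposite strand, had 139 and 142 CPM at 6 h and 175 and 193 CPM at 36 h. *rtv*, *Cht2* and *yellow-d* were those with an interval inside 2-fold, at −0.13 to 0.91 for *Cht2* and 0.20 to 0.96 for *yellow-d*, and both had their 36 h libraries above their 6 h libraries.

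**Figure D4:**
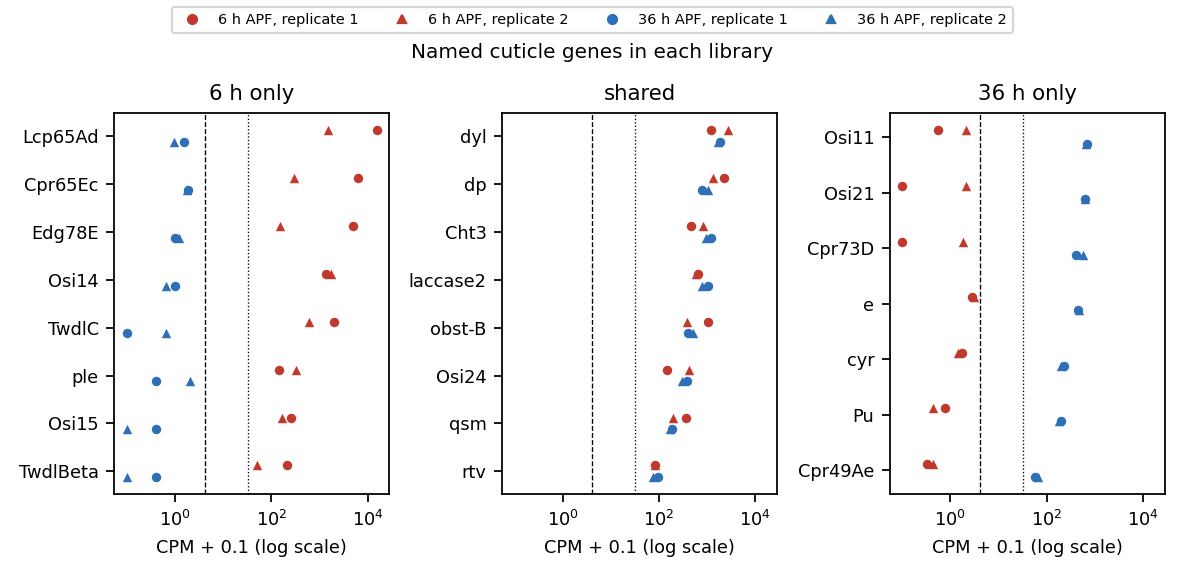
CPM in each of the 4 libraries (0.1 added, logarithmic axis) for named cuticle genes of 6 h only, shared, and of 36 h only. Circles are replicate 1 and triangles replicate 2, the dashed line marks 4 CPM and the dotted line 32 CPM. The 6 h replicates of *Lcp65Ad*, *Cpr65Ec* and *Edg78E* lie far apart, at 15582 against 1504 CPM for *Lcp65Ad*, while the 36 h replicates of *Osi11* lie together at 686 and 663 CPM.

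Genes used at both timepoints but at unequal levels were more numerous, with 26 in the cuticle lists. They included 6 of the 14 tested chitin synthesis and assembly genes, all higher at 6 h, 2 of the 4 obstructor genes and 4 of the 13 chitinases and related genes. *kkv*, the chitin synthase of the epidermis, had 1032 and 592 CPM at 6 h and 354 and 313 CPM at 36 h, and the libraries did not overlap. It fell by 1.28 on the log2 scale (SE 0.31, adjusted p = 0.00542 from edgeR's test), but without 6 h replicate 1 the change was −0.83 and no longer 2-fold. *mmy* and *Gfat1*, which supply the activated sugar for chitin, fell by 2.52 and by 2.73, with 322 to 1004 CPM and 1830 to 5304 CPM at 6 h against 106 to 125 CPM and 461 to 617 CPM at 36 h.

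In the list of chitin synthesis and assembly genes, 10 of 14 tested genes were lower at 36 h and 0 were higher. The shares among all tested genes were 16.2 and 17.0%. Half-way through the list, at its median, the log2 change was −2.78 (−1.62 without 6 h replicate 1, −3.23 without 6 h replicate 2). The list was not uniform, as its largest fitted change was a rise of 6.11, not past the test. With no filter on low counts, 10 of 15 were lower and 1 was higher. *Gfat2*, the other gene for the first enzyme of this sugar pathway, was not past the test, with 34.8 and 31.6 CPM at 6 h and 53.3 and 64.1 CPM at 36 h. The deacetylases *serp* and *verm*, which modify chitin after it is made, fell the most. *verm* had 12928 and 3801 CPM at 6 h and 35.9 and 43.3 CPM at 36 h, and *serp* had 9038 and 2422 CPM at 6 h and 10.9 and 10.3 CPM at 36 h. *knk*, which organises and protects chitin fibres, had 265 and 275 CPM at 6 h and 25.6 and 33.6 CPM at 36 h, where the 6 h replicates lay close together (log2 fold change −3.19, SE 0.23, adjusted p = 8.23e-07 from edgeR's test). It overlaps an antisense RNA gene. *exp* (*CG13188* in the files, overlapping *PI31* on the opposite strand), needed for chitin deposition in trachea, had 1797 and 1148 CPM at 6 h and 27.4 and 30.0 CPM at 36 h.

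The obstructor genes bind chitin in the assembling matrix. *Gasp*, which trachea also express, had 10694 and 1895 CPM at 6 h and 301 and 229 CPM at 36 h, and the tracheal regulators *btl* (4.13 and 3.40 CPM at 6 h, 1.47 and 2.22 CPM at 36 h) and *trh* (76.1 and 33.6 CPM, 41.8 and 36.6 CPM) were not past the test. *obst-A* had 8158 and 3571 CPM at 6 h and 947 and 645 CPM at 36 h. Both fell, by 4.57 (SE 0.70) and 2.88 (SE 0.36) on the log2 scale, and *obst-E* fell as well. Among the chitinases and related genes, 4 of 13 were lower at 36 h (30.8%) and 2 were higher (15.4%), against 16.2 and 17.0% of all tested genes. *Cht6* had 2169 and 820.4 CPM at 6 h and 390.1 and 347 CPM at 36 h, and *Cht7* had 443 and 316 CPM and 135 and 91.3 CPM. *Hexo1*, a hexosaminidase, went the other way, with 79.3 and 122 CPM at 6 h and 295 and 316 CPM at 36 h.

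Among the cuticle lists, the ZP genes had the largest share of members higher at 36 h, 8 of 12 (66.7%) with 0 lower. Over all tested genes, 17.0% were higher and 16.2% lower. The median log2 fold change of the ZP list was 2.38. Without 6 h replicate 2 the list had 7 higher and 3 lower, with a median of 3.37, and without replicate 1 it had 8 and 0. *dy*, which shapes the wing cell surface, had 622 and 2127 CPM at 6 h and 7224 and 8280 CPM at 36 h. *m* (miniature), a related ZP gene whose mutants also have small wings, had 68.3 and 232 CPM at 6 h and 4695 and 5176 CPM at 36 h (*CG9360* overlaps it on the opposite strand). *tyn* had 106 and 415 CPM against 8842 and 8641 CPM, and *mey* had 57.3 and 66.6 CPM against 2389 and 2183 CPM. These rises were 2.50, 5.04, 5.07 and 5.21 on the log2 scale, with standard errors of 0.49, 0.52, 0.53 and 0.31. *neo* stayed outside the class of 36 h only because it had 5.27 and 10.9 CPM at 6 h, against 2881 and 2559 CPM at 36 h. The ZP genes therefore held 3 of the 11 shared genes, 6 that were high at both timepoints but higher at 36 h, and *cyr*, of 36 h only.

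Of the 13 cuticle genes of 6 h only, 5 were Osiris genes, 3 Cpr genes, 2 *Lcp* or *Edg* genes, 2 Tweedle genes and 1 the tyrosine hydroxylase gene *ple*. The limits on level hold for each library, so leaving a library out loosens them and is no test of this class. The 7 with the highest levels per length were *Lcp65Ad*, *Cpr65Ec*, *Edg78E*, *Osi14*, *TwdlC*, *TwdlBeta* and *Osi15*. *Lcp65Ad*, a chitin-binding protein first known from larval cuticle, had 15582 and 1504 CPM at 6 h and 1.47 and 0.833 CPM at 36 h. *Edg78E*, an ecdysone-dependent pupal cuticle gene, had 4980 and 151 CPM at 6 h and 0.883 and 1.11 CPM at 36 h. *Cpr65Ec*, with the chitin-binding consensus of the Cpr family, had 6442 and 301 CPM at 6 h and 1.77 and 1.67 CPM at 36 h. The adjusted p-values of these genes from edgeR's test were 1.02e-05, 0.000145 and 0.000103. Being past the test was a condition of the class, so these values are a description. The 6 h replicates of these genes differed more than 10-fold. With the 4 libraries alone in the fit, the adjusted p-values of edgeR's test were 0.00191, 0.0076 and 0.00541.

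Osiris genes of this class differed less between the 6 h replicates. *Osi14* had 1394 and 1750 CPM at 6 h and 0.883 and 0.555 CPM at 36 h, the smallest adjusted p among the 13 cuticle genes at 1.19e-08. *Osi15* had 256 and 166 CPM at 6 h, with 0.294 CPM and no count at 36 h. *Osi20* and *Osi19* had no count in either 36 h library and were at least 97.8-fold and 73.1-fold higher at 6 h, against the larger floor of 3 counts in a library, with 116 and 56.4 CPM for *Osi20* and 91.7 and 37.4 CPM for *Osi19*. The family thus held members that were silent or nearly so at 36 h beside the abundant 36 h members described further on. *Osi5* had 52.3 and 135 CPM at 6 h and 1.47 and 0.278 CPM at 36 h. *TwdlC*, of the Tweedle cuticle proteins, had 1967 and 596 CPM at 6 h and 0.555 CPM or no count at 36 h, and *TwdlBeta* had 206 and 49.6 CPM and at most 0.294 CPM. Among the remaining genes of 6 h only, *Cpr35B* had replicates that lay close together, with 98.1 and 107 CPM at 6 h against 0.555 CPM or less at 36 h. *ple*, which makes dopa, the first step to cuticle catecholamines, had 144 and 327 CPM at 6 h and 0.294 and 1.94 CPM at 36 h.

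Some of the most abundant 6 h transcripts fell as far but stayed above the low limit of 4 CPM at 36 h. *TwdlT* had 26787 and 6842 CPM at 6 h and 12.7 and 26.1 CPM at 36 h, and *TwdlE* had 11984 and 2705 CPM and 33.2 and 41.9 CPM. *Osi6* had 9268 and 22593 CPM at 6 h and 9.71 and 6.38 CPM at 36 h (log2 fold change −10.95, SE 0.63). *Cpr51A* had 13479 and 2779 CPM at 6 h and 13.5 and 10.3 CPM at 36 h, with *CG30197* on the opposite strand. Reads were therefore still counted for these genes at 36 h, well above the floor of each library. *Edg84A*, another pupal cuticle gene, had 2203 and 60.2 CPM at 6 h and 5.88 and 5.83 CPM at 36 h.

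Other 6 h genes missed the class on the side of 6 h replicate 2. *Cpr47Ec* had 545 CPM in replicate 1 and 11.6 CPM in replicate 2, with no count at 36 h. *Lcp65Ag2*, whose neighbours in the cluster are near-identical to it, had 745 and 10.5 CPM at 6 h and at most 0.294 CPM at 36 h. Of the *Lcp*, *Ccp*, *Edg* and *Acp* list, 13 of 18 tested genes were lower at 36 h and 1 was higher. Over all tested genes, 16.2% were lower and 17.0% higher. A gene could pass the filter through 1 library, so one high in a single 6 h library was tested. With the filter met in at least 2 libraries, 7 of the list were tested, 5 of them lower and 1 higher. The count of lower genes among the 18 is therefore partly set by the filter. Without 6 h replicate 1 only 8 of these genes passed the filter and 4 were lower, and without 36 h replicate 1 or replicate 2 the count was 8 or 7 of 18. *Acp65Aa*, the adult cuticle protein gene of the *Lcp65A* cluster, was the one that rose, from 0.229 CPM in one 6 h library and no count in the other to 5.59 and 5.27 CPM.

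The 8 cuticle genes of 36 h only were *Osi11*, *Osi21*, *Cpr73D*, *Cpr49Ae*, *Cpr92F*, *cyr*, *e* and *Pu*. As for 6 h only, leaving a library out loosens the limits on level and is no test of this class. Being past the test was likewise a condition of the class, so its p-values are a description. *Osi11* had 0.458 and 2.04 CPM at 6 h and 686 and 663 CPM at 36 h (adjusted p = 3.09e-08 from edgeR's test). *Osi21*, which overlaps *mre11* on the opposite strand, had no count and 2.04 CPM at 6 h and 609.9 and 624 CPM at 36 h. *Cpr73D*, within *Ogdh* and *Obp73a* on the opposite strand, had no count and 1.70 CPM at 6 h and 409 and 562 CPM at 36 h. The 36 h replicates lay within 1.5-fold of each other for all 3.

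Of the other genes of this class, *e* and *Pu* belong to tanning and *cyr* to the ZP genes, and *Cpr49Ae* and *Cpr92F* are given with the Cpr genes. *e* (ebony), which joins beta-alanine to dopamine for pale cuticle, had 2.75 and 3.06 CPM at 6 h and 449 and 464 CPM at 36 h, a log2 fold change of 7.29 (SE 0.29). *Pu*, the GTP cyclohydrolase that makes the cofactor of tyrosine hydroxylase, had 0.688 and 0.340 CPM at 6 h and 203 and 178 CPM at 36 h. *ple*, the tyrosine hydroxylase gene itself, was on the other side, high at 6 h and at 1.94 CPM or less at 36 h, and *Ddc*, the next enzyme, was at 4.58 and 1.36 CPM at 6 h and 0.883 and 0.555 CPM at 36 h. Genes for enzymes of one pathway were thus high at different timepoints. *cyr*, a ZP gene, had 1.60 and 1.36 CPM at 6 h and 227 and 195 CPM at 36 h (2 genes lie opposite it). Of 20 tested tanning genes, 6 were higher (30%) and 5 lower (25%) at 36 h, against 17.0 and 16.2% of all tested genes. Their median log2 fold change was 0.47. *yellow-d2* had 5.50 and 9.86 CPM at 6 h and 106.5 and 109 CPM at 36 h, and *yellow-c* had 15.1 and 7.82 CPM and 137 and 135 CPM. These genes, like *Cht6*, *Hexo1*, *yellow-d*, *TwdlE*, *Cda5*, *Cpr56F* and *mwh*, overlap a gene on the opposite strand. *amd*, which was high at both timepoints, had 148 and 485 CPM at 6 h and 79.7 and 72.4 CPM at 36 h.

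Cpr genes were split between the timepoints, with 16 of 44 higher and 21 lower at 36 h and none shared. Over all tested genes, 17.0% were higher, 16.2% lower and 25.7% shared. With the filter met in at least 2 libraries, 14 of 36 Cpr genes were higher and 17 lower. Leaving out 6 h replicate 1 gave 14 higher and 14 lower of 39, and moved the median from −1.50 to 0.09. *Cpr78E* had 14.9 and 82.2 CPM at 6 h and 525 and 469 CPM at 36 h. *Cpr92A* had no count at 6 h and 15.6 and 23.6 CPM at 36 h, at least 19.2-fold higher. *Cpr49Ae*, of 36 h only, had 0.229 and 0.340 CPM at 6 h and 57.1 and 65.5 CPM at 36 h, and *Cpr92F* had 0.458 CPM or no count and 48.8 and 69.7 CPM. The 36 h replicates disagreed for *Cpr56F*, with 46.5 and 1.67 CPM. *Cpr72Ea*, with 11.7 and 81.9 CPM at 6 h and 73.6 and 90.5 CPM at 36 h, belonged to neither and had its highest level at 18 h, 11999 and 16031 CPM.

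Osiris genes were split likewise, with 9 of 22 higher (40.9%) and 11 lower (50%) at 36 h, against 17.0 and 16.2% of all tested genes. Their median log2 fold change was −1.01, but −0.30 without 6 h replicate 1 and −0.06 without 6 h replicate 2. *Osi7*, the most abundant at 6 h per length of those matched to a length, had 18401 and 44548 CPM at 6 h and 833 and 505 CPM at 36 h. *Osi22* had 1.15 and 7.82 CPM at 6 h and 22349 and 16564 CPM at 36 h, the largest fitted rise of the cuticle lists (log2 fold change 12.20, SE 0.72). *Osi3* had 73.1 and 357 CPM at 6 h and 17740 and 14778 CPM at 36 h, and *Osi9* had 473 and 1278 CPM and 13786 and 16355 CPM. *Osi8* had 3.21 and 14.3 CPM at 6 h and 1089 and 1091 CPM at 36 h. A member in neither group was *Osi12*, with 6.88 and 149 CPM at 6 h and 277 and 195 CPM at 36 h, which was not past the test and had 36818 and 39115 CPM at 44 h. The share of reads on genes that came from the whole family was 2.69 and 6.35% at 6 h and 5.22 and 4.61% at 36 h, so that the totals overlapped although 20 of the 22 members were past the test.

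Genes of the secretory pathway, which move matrix proteins to the cell surface, were the list with most shared members, 10 of 11. Over all tested genes 25.7% were shared. Of the 10, 6 had an interval inside 2-fold. The whole list was high at both timepoints, and of all tested genes high at both, 2173 were shared and 568 were 2-fold or more apart. *Sec61alpha*, a subunit of the channel into the endoplasmic reticulum, had 1126 and 1341 CPM at 6 h and 1026 and 852 CPM at 36 h. *Tango1*, which loads large cargo at exit sites, had 134 and 126 CPM at 6 h and 152 and 161 CPM at 36 h. *CrebA*, a transcription factor that drives secretory genes, was the exception, with 243 and 860.2 CPM at 6 h and 1238 and 1762 CPM at 36 h (log2 fold change 1.44, SE 0.45, adjusted p = 0.0218 from edgeR's test). Its call was lost without 6 h replicate 1, without 36 h replicate 2, with the 4 libraries alone, with a test against 2-fold (glmTreat) and with library sizes that include reads on no gene.

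Among 20 regulators, 8 were higher (40%) and 3 lower (15%) at 36 h, against 17.0 and 16.2% of all tested genes. *ftz-f1*, the nuclear receptor of the mid-prepupal stage, had 1603 and 1230 CPM at 6 h and 6.18 and 12.5 CPM at 36 h, and *br* (broad), which overlaps *Mur2B*, had 1321 and 1104 CPM and 6.77 and 8.88 CPM. Both fell, by 7.24 (SE 0.51) and 7.27 (SE 0.51) on the log2 scale. *Blimp-1*, an ecdysone-inducible repressor of *ftz-f1*, was of 36 h only, with 0.229 and 0.340 CPM at 6 h and 228 and 192 CPM at 36 h. *Hr46* (*Hr3* in the current annotation), an activator of *ftz-f1*, had 137 and 182 CPM at 6 h and 944 and 923 CPM at 36 h. *Eip93F*, which specifies adult fate, had 86.2 and 132 CPM at 6 h and 1074 and 1566 CPM at 36 h.

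*grh* and *EcR* were among the shared genes. *grh* (grainyhead), a regulator of epidermal barrier genes, had 894 and 708 CPM at 6 h and 705 and 941 CPM at 36 h, with an interval of −0.49 to 0.57 on the log2 scale. *EcR*, the ecdysone receptor, had 103 and 124 CPM at 6 h and 224 and 228 CPM at 36 h, a log2 fold change of 0.99 (SE 0.22) just inside the 2-fold limit. With the size factors of DESeq2 it was 1.07 and past the test. *ovo*, whose product patterns hairs, had 196 and 31.3 CPM at 6 h and 132 and 178 CPM at 36 h and was in no class. Without 6 h replicate 1 it was higher at 36 h and past the test (2.31). These genes overlap antisense, tRNA or other genes on the opposite strand. Of the 14 wing hair genes, 7 were higher at 36 h (50%) and 0 lower, against 17.0 and 16.2% of all tested genes. Among the higher were *mwh* with 2.98 and 6.12 CPM at 6 h and 559 and 494 CPM at 36 h, and *sha* with 3.67 and 10.5 CPM and 1039 and 817 CPM.

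Across the series, 575 genes (6.79%) fell from 6 to 18 h and rose from 24 to 36 h, past the test in both. They included 203 of all 2173 shared genes and 6 of the 11 shared cuticle genes, *dyl*, *laccase2*, *nst*, *obst-B*, *Osi24* and *yellow-d*. The 6 and 36 h libraries also chose these genes, so the counts, and the p-values given for the fall and rise of shared genes, are a description. The number of shared cuticle genes with this dip was between 5 and 7 when any of the 8 libraries was left out. In all, 32 of the 152 tested cuticle genes had the dip, 14 of them among the 26 genes that were high at both timepoints and apart, such as *m*, with 13.7 to 50.5 CPM in the 4 libraries at 18 and 24 h, and *Gasp*, with 21.0 to 155 CPM.

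At 44 h, when adult cuticle production is under way, 3530 of all tested genes (41.7%) had at least 32 CPM in both libraries. Of the 81 genes of 6 h only, 19 did, among the 13 cuticle genes 1, *Lcp65Ad* with 135 and 51.2 CPM. All 11 shared cuticle genes and all 26 that were high at both but apart were above 32 CPM at 44 h, and 4 of the 8 cuticle genes of 36 h only were. Most genes of the first 2 classes were so whether or not they were cuticle genes. The counts were 2075 of all 2173 shared genes and 545 of all 568 that were high at both but apart. Of all 60 genes of 36 h only, 28 were. Both 44 h libraries lay above both 36 h libraries, with a mean at least 2-fold higher, for 1183 of all tested genes (14.0%). The same held for 76 of the 152 cuticle genes and for 51 of the 71 that were lower at 36 h than at 6 h, against 516 of the 1375 lower genes overall. *knk* had 1055 and 927 CPM at 44 h, *Osi7* had 49202 and 51064 CPM and *Cda5*, a chitin deacetylase, had 1199 and 1139 CPM, against 119 and 109.9 CPM at 36 h. Others stayed far below their 6 h levels, such as *TwdlT* at 252 and 199 CPM and *Edg78E* at 61.9 and 26.3 CPM.

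**Figure D5:**
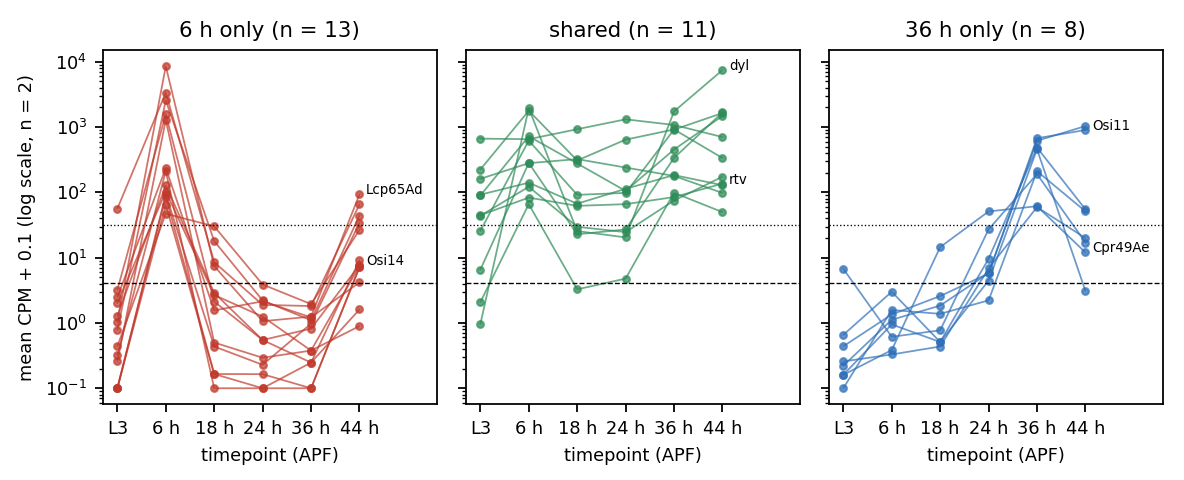
Mean CPM (2 libraries, 0.1 added, logarithmic axis) at the 6 timepoints for each cuticle gene of 6 h only (13 genes), shared (11) and of 36 h only (8). The dashed line marks 4 CPM and the dotted line 32 CPM. The genes of 6 h only peak at 6 h and have means under 4 CPM at 24 and 36 h, 6 of the 11 shared genes dip at 18 and 24 h, and 4 of the 8 genes of 36 h only are back under 32 CPM at 44 h.

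Outside the cuticle lists, the shared genes with the largest drop between the timepoints were *hebe*, *spz4*, *ect*, *CG9095* and *CG6118*. *ect* had 2785 and 9244 CPM at 6 h and 4670 and 4153 CPM at 36 h, with 64.8 to 115 CPM at 18 and 24 h. *hebe* had 43.3 and 44.5 CPM at 6 h and 77.1 and 74.1 CPM at 36 h, with at most 1.96 CPM between. *spz4*, a gene of the Spätzle ligand family that overlaps *Dlg5* on the opposite strand, had 308 and 1435 CPM at 6 h and 584 and 669.8 CPM at 36 h. Without 6 h replicate 1, *CG6118*, *spz4* and *ect* were lower at 36 h by more than 2-fold and past the test (−1.25, −1.19 and −1.07), and without replicate 2 *spz4* was 1.03 higher.

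The genes of 6 h only outside the lists with the highest levels per length were *CG15212*, *CG17127*, *CG16704*, *CG9083* and *CG10264*. *CG10264* (*Jhbp4* in the current annotation, with *Jhbp5* on the opposite strand) had replicates that lay close together, 1083 and 966 CPM at 6 h and 0.883 and 0.555 CPM at 36 h. The others had replicates further apart. *CG15212* had 10436 and 873 CPM at 6 h and at most 1.94 CPM at 36 h. *CG17127* had 7062 and 2352 CPM at 6 h, 2.65 and 2.50 CPM at 36 h, and 379.6 and 507 CPM at 44 h. *CG9083*, with *Tpc2* on the opposite strand, had 6576 and 1331 CPM at 6 h and 0.833 CPM or no count at 36 h. Those of 36 h only were *CG15888*, *CG13081*, *CG14406*, *CG13064* and *CG9815*. *CG15888* had 2.06 and 3.40 CPM at 6 h and 9220 and 8327 CPM at 36 h, and *CG13081* had 0.688 and 0.340 CPM and 3339 and 2535 CPM. *CG13064* was already at 319 and 368 CPM at 24 h, against 232 and 192 CPM at 36 h.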

How the data were processed

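The authors sequenced 12 RNAseq libraries of dissected wings, aligned the reads to the dm3 genome build with TopHat2 (2.1.0) and counted reads per gene with HTSeq (0.6.1), and the deposited counts are used here as given. The authors also deposited RPKM values, which served in an alternative only, and 2 RPKM columns that match no sample were not used. Rows for reads on no gene (52.8 to 75.2% of the records in the 4 libraries) were left out. Counts were fitted with edgeR 4.0.16 in R 4.3.3, with TMM factors and all 12 libraries in one model so that the groups share an estimate of the spread. Genes with log2 CPM above 2 (prior count 2) in at least 1 library were tested, 8469 of 15240. Per-length levels used BDGP6 exon lengths, and a fold against no counts used the floor of 3 counts in a library. Genes were matched to the annotation by symbol (11814) or synonym (3248). The members and gene lists were chosen with earlier results of these data known. Genes named by rule were the 7 cuticle genes of each class with the highest level per length, the 5 other genes of each class (by level per length or, if shared, by ratio to 18 and 24 h), and a fixed set of cuticle and ecdysone genes. Further genes were named after their values were seen. Replicate numbers did not pair the samples. DESeq2 1.42.0 and limma 3.58.1 served as alternatives. The main fit was also run on simulated data, where it recovered 192 of 200 set changes and called 17 of 8108 unchanged genes. Each simulated gene had the same dispersion at every timepoint, so this does not test the fit under the wider spread of the 6 h replicates.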

Additional observations from a re-analysis of the deposited data

How the results depend on the processing

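Of 166 counts under an alternative, 142 were within 1.5 times the reported one. The counts that moved were 912 genes higher and 825 lower with a test against 2-fold (glmTreat), and 688 higher with limma on the deposited RPKM. A high limit of 16 CPM gave 140 genes of 6 h only and 125 of 36 h only, and one of 64 CPM gave 1304 shared genes, 52 of 6 h only (8 of them cuticle genes) and 29 of 36 h only. A low limit of 2 CPM gave 36 genes of 36 h only (5 cuticle genes) and one of 8 CPM gave 94. Similarity within 1.5-fold left 6 shared cuticle genes, an interval inside 2-fold left 1294 shared genes and 3 cuticle genes, and with levels in RPKM 1084 genes were shared, of which 1011 were among the 2173. The classes of 6 h only and 36 h only held 59 of their 81 and 30 of their 60 genes with levels in RPKM. Library sizes that include reads on no gene, an alternative chosen after seeing the data, moved the median log2 fold change of all genes from −0.09 to −0.62 and gave 771 genes higher, 2258 lower, 658 shared (5 cuticle genes), 37 of 36 h only and 3 shared cuticle genes with a dip.

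Without single libraries, genes of 6 h only numbered 89 to 135 and cuticle genes of 6 h only 13 to 26, the most without 6 h replicate 2. With the replicate number as a block (replicate block) there were 1475 genes higher, 1370 lower, 2171 shared, 81 of 6 h only and 60 of 36 h only. The block changed no call of a named gene. Of 747 alternatives for named genes, 697 kept direction and call, and every reversed direction was that of a shared gene or of *ovo*, none of them past the test in the reported fit. *kkv*, past the test in that fit, was not so with glmTreat, with the 4 libraries alone (adjusted p = 0.2375 and 0.05605 in edgeR) or without 6 h replicate 1.

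Log2 fold changes that reversed were those of *CG9095* with DESeq2 size factors (0.057), library size alone (0.020), the DESeq2 Wald test (0.056), the 4 libraries alone (0.047) and the replicate block (0.013), and those of *Osi24* (−0.071), *rtv* (−0.42) and *grh* (−0.46) with limma on RPKM. With reads on no gene in the library sizes, *Osi24* was at −0.14, *rtv* at −0.44, *grh* at −0.49 and *ovo* at −0.17. Without single libraries, the log2 fold change ranged from −0.62 to 0.51 for *dyl*, −1.23 to 0.25 for *obst-B*, −0.30 to 1.18 for *Osi24*, −0.14 to 0.18 for *rtv*, −1.25 to 0.0086 for *CG6118*, −1.19 to 1.03 for *spz4*, −1.07 to 0.66 for *ect*, −0.48 to 0.65 for *CG9095*, −0.18 to 0.23 for *grh* and −0.34 to 2.31 for *ovo*. The cause was not tested.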

Other observations

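The deposited RPKM values imply a gene length that is the same in every library but has a Spearman correlation of 0.0115 across 12545 genes with BDGP6 exon length, and 27.3% of genes lay within 1.5-fold of it. The RPKM were therefore not used to compare genes with each other.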
